A study of Mus musculus with 9 samples.

Results

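The fast fibre sarcomere genes are 10 genes whose products build or regulate the contractile apparatus of fast-twitch muscle fibres. They were chosen by name: the myosin light chains Mylpf and Myl1, the troponin subunits Tnnt3, Tnni2 and Tnnc2, the tropomyosin gene Tpm1, the thick filament gene Mybpc2, the Z-disc genes Actn3 and Myoz1, and Pvalb, which encodes a calcium buffer. All 10 were measured among the 18193 genes of the arrays, through 16 probe sets that the platform annotation lists to 1 of these genes alone. Tpm1 had 4 probe sets, Tnni2 had 3, Myoz1 had 2 and each of the other 7 genes had 1. Where a gene had several, its brightest probe set by mean stands for it.

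Expression was measured on Affymetrix arrays in the gastrocnemius, a calf muscle built mostly of fast fibres in the mouse, of CD-1 mice, outbred animals that were young adults. The sham group underwent a sham operation and carried placebo pellets. The castration group was castrated and carried placebo pellets, and the testosterone group was castrated and carried pellets of 2.5 mg testosterone made to release over 60 days. Pellets were implanted directly after surgery and the muscle was taken on day 14 from mice that had not been fasted. There were 3 arrays for each group, and RNA of 3 mice was pooled on every array, so an SD is the spread between pools and not between mice. Values are log2 expression, and in RNA from whole muscle fewer fibres of a type and less RNA per fibre cannot be told apart.

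In fast fibres, calcium released from the sarcoplasmic reticulum binds troponin C, which moves troponin I, troponin T and tropomyosin on the thin filament and lets myosin heads attach. The regulatory and alkali light chains stabilise the myosin head, myosin binding protein C holds and tunes the thick filament, and alpha-actinin anchors thin filaments at the Z-disc. Parvalbumin takes up calcium and speeds relaxation. Most of these proteins have a slow fibre counterpart encoded by another gene, and the balance of the fast and slow forms distinguishes fibre types.

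The arrays least like the rest were sham 2 and testosterone 2, whose mean correlations with the other arrays were 0.973 and 0.983, against 0.990 to 0.991 for the remaining 7. Testosterone 2 also had the largest log2 difference between the 3′ and 5′ control probe sets of Gapdh, a sign of RNA quality, at 1.10 against 0.02 to 0.28 on the others. Its adipocyte score, the mean of the markers' log2 deviations from their own means, was 0.97 and its macrophage and lymphocyte score 1.03, the highest of the 9 arrays. Sham 2 had the highest epidermal score, 0.61, and an adipocyte score of 0.82. Its tendon score, −0.71, and its fibroblast and matrix score, −0.61, were the lowest. The skeletal muscle markers Ckm, Acta1, Myh4, Des, Mb and Atp2a1 were at 11.88 or higher on every array and their mean deviation lay between −0.04 and 0.05. No gene of the 18193 passed an adjusted p of 0.05 by limma in any comparison, and 859, 633 and 791 had an unadjusted p under 0.05 for castration against sham, testosterone against castration and testosterone against sham.

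The 10 genes stood at the top of the arrays in all 3 groups. All 10 ranked within the first 100 of 45037 probe sets by mean, and 10 of the 34 probe sets with a mean of at least 13 belonged to them, 2 of these to Tnni2 and none to Myoz1. Tnni2 ranked 2 to 3 from the top on every array and Mylpf 3 to 5, and Myoz1, the dimmest, ranked 45 to 74. The highest value of any probe set was 14.17 to 14.24 on the 9 arrays, and the mean of Tnni2 was 14.12. Array signals can flatten near their upper end. The deposited values were also normalised together over the arrays, and Tnnc2 had the same value, 13.9252, on sham 1, sham 2, castration 3 and testosterone 2. How far either narrowed the ranges and differences of these genes was not tested. The whole range of their deposited values over 9 arrays ran from 0.0603 for Tnnt3 to 0.306 for Myoz1, with a median of 0.123, against a median range of 0.512 over all genes. The 18 other genes with a mean of at least 13 had a median range of 0.155, so small ranges were shared by genes at this level. The median range fell with level, from 0.620 for genes with a mean of 8 to 11 to 0.352 at 11 to 13 and 0.140 at 13 or more.

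**Figure D1:**
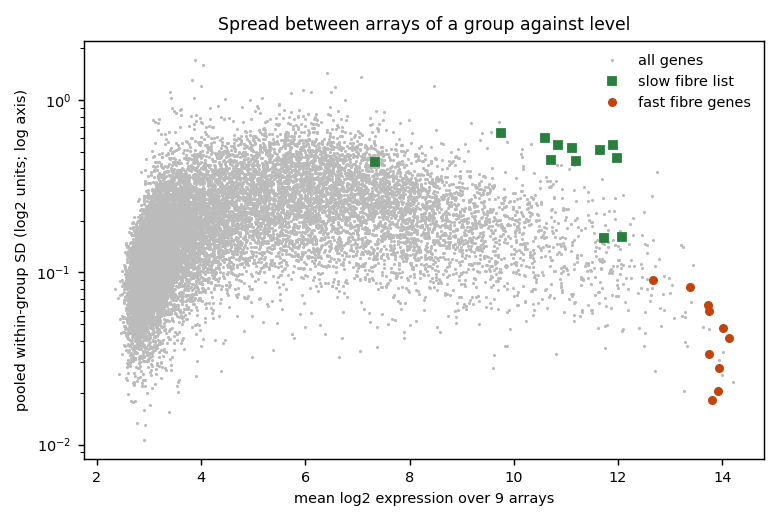
Pooled within-group SD (log2 units, log axis) against mean log2 expression over 9 arrays for all 18193 genes (grey), the 12 slow fibre genes (green squares) and the 10 fast fibre genes (red circles). The fast fibre genes lie at the bright end, with a median SD of 0.0445, and the slow fibre genes at a median SD of 0.488.

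The fast myosin light chains did not differ between groups beyond their spread. Mylpf encodes the fast regulatory light chain. Its values were 14.00, 13.95 and 14.09 in sham, 14.01, 14.06 and 14.01 after castration, and 14.02, 13.96 and 13.98 with testosterone. The 3 groups overlapped, and the group means differed by 0.04 at most. The log2 difference was 0.02 (SE 0.07, adjusted p = 0.956 by limma) for castration against sham and −0.04 (SE 0.07, adjusted p = 1.00) for testosterone against castration. Myl1 encodes the fast alkali light chain. It measured 13.78, 13.69 and 13.72 in sham, 13.80, 13.77 and 13.73 after castration, and 13.73, 13.56 and 13.73 with testosterone. Testosterone 2 was the low array, with the Gapdh 3′ to 5′ difference given above, and its part in the value was not tested. The difference of testosterone against castration, −0.09 (95% interval −0.27 to 0.09), was −0.04 without that array.

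Of the 10 genes, 6 matched the RefSeq promoter table of build GRCm38.p6, with 7 promoters that run from 250 bases before to 50 after a transcript start. The promoters of both light chain genes and of Tnnc2 are printed because these are members of the contractile and calcium-sensing steps whose levels stayed at the top of the array in every group. E-boxes (CANNTG, which is the same motif on both strands and the site of myogenic basic helix-loop-helix factors) and the androgen receptor hexamer (AGAACA, or TGTTCT on the other strand) are in capitals.
Mylpf, chr7:127211358-127211657, plus strand: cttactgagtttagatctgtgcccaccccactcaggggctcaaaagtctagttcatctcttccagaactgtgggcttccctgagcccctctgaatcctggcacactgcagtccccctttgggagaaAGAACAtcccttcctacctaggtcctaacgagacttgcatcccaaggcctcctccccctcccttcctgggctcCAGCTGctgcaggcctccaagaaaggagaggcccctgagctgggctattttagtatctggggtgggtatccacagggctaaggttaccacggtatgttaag
Myl1, chr1:66945007-66945306, minus strand: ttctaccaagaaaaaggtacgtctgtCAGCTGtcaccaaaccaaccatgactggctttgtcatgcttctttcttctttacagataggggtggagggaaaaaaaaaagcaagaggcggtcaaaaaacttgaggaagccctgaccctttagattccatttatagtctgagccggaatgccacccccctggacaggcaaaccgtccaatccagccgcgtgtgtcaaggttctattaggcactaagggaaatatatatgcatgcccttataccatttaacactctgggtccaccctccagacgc
Tnnc2, chr2:164779685-164779984, minus strand: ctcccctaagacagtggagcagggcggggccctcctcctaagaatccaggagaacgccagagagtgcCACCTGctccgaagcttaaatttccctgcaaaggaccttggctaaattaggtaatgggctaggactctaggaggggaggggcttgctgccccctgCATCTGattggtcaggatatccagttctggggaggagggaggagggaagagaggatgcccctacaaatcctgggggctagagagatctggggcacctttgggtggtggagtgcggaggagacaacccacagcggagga
The Mylpf promoter held the E-box CAGCTG 51 bases before the start and 1 androgen receptor hexamer 124 bases before it. Myl1 held CAGCTG 224 bases before its start, and Tnnc2 held CACCTG and CATCTG at 183 and 88 bases before its start. Of the 7 promoters 6 held an E-box, which 72.3% of 32544 promoters of this length also did, and 2 held the hexamer, against 18.9%. The other one was that of Pvalb, 40 bases after the start of its second promoter. The only MEF2 core searched, TATTTAT, or ATAAATA on the other strand, was in none of the 7 and in 5.62% of all promoters. Other forms of the MEF2 site were not searched. These matches describe letters in the windows and are not evidence of binding.

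The troponin subunits and tropomyosin, which switch the thin filament on, were equally level. Tnni2 encodes fast troponin I, the inhibitory subunit. It measured 14.12, 14.14 and 14.16 in sham, 14.08, 14.17 and 14.07 after castration, and 14.14, 14.07 and 14.13 with testosterone. Castration 2 was the highest of all 9 arrays and castration 3 the lowest, so the castration arrays spanned those of both other groups. Tnnt3 encodes fast troponin T, which ties the complex to tropomyosin. Its values lay between 13.78 and 13.84 on the 9 arrays, the narrowest range of the 10 genes. Tnnc2 encodes fast troponin C, the calcium sensor. Its values were 13.93, 13.93 and 13.94 in sham, 13.93, 13.93 and 13.93 after castration, and 13.88, 13.93 and 13.86 with testosterone. Testosterone 1 and 3 were the low arrays and testosterone 2 lay with the other groups, and the difference of testosterone against castration was −0.04 (SE 0.06, adjusted p = 1.00 by limma). Tpm1 encodes alpha-tropomyosin of the thin filament. Its brightest probe set measured 13.90 to 13.97 in sham, 13.95 to 13.98 after castration and 13.89 to 13.96 with testosterone, and all 3 groups overlapped.

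Mybpc2 encodes the fast form of myosin binding protein C. It measured 13.28, 13.42 and 13.40 in sham, 13.29, 13.41 and 13.38 after castration, and 13.50, 13.30 and 13.35 with testosterone. Sham 1, castration 1, testosterone 2 and testosterone 3 were the low arrays, so every group held at least 1, and the group means differed by no more than 0.03. Its difference was −0.01 (95% interval −0.20 to 0.19) for castration against sham and 0.03 (−0.17 to 0.22) for testosterone against castration.

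The Z-disc genes and the calcium buffer held the members whose groups came apart. Myoz1 encodes calsarcin-2, a Z-disc protein of fast fibres that binds alpha-actinin and calcineurin. It measured 12.72, 12.80 and 12.74 in sham, 12.53, 12.53 and 12.61 after castration, and 12.83, 12.55 and 12.69 with testosterone. All 3 castration arrays lay below all 3 sham arrays, while testosterone 2 lay within the castration range and the other testosterone arrays above it. The sham mean was 12.75 ± 0.05 (SD, n = 3) and the castration mean 12.56 ± 0.05. The difference of −0.20 (95% interval −0.40 to 0.003) did not pass the limma test over all genes (adjusted p = 0.838), and it ran from −0.22 to −0.17 when 1 array was left out. Its unadjusted p was under 0.05 in 9 of 21 alternative settings, which refit the same data and are not independent. In those 9 settings 756 to 3295 of the 18193 genes had an unadjusted p under 0.05. Markers of other cells also differed in direction between castration and sham, though none passed by limma in any comparison. Of the endothelial markers 10 of 12, of tendon 7 of 8 and of smooth muscle 5 of 7 were higher after castration. Of the macrophage and lymphocyte markers 9 of 12, of nerve and Schwann 3 of 5 and of epidermal 7 of 7 were lower. Of 9 measured adipocyte markers 8 were lower after castration than in sham, with scores of −0.54 to −0.49 after castration, −0.28 to 0.82 in sham and −0.47 to 0.97 with testosterone. Of 11 fibroblast and matrix markers 10 were higher after castration than in sham, with scores of 0.19 to 0.50, −0.61 to 0.24 and −0.49 to −0.10 in the same order. Their part in the Myoz1 values was not tested. Testosterone against castration gave 0.13 (SE 0.09, adjusted p = 1.00), which was 0.06 without testosterone 1 and 0.21 without testosterone 2. The second probe set of Myoz1 was much dimmer. It measured 6.11, 6.02 and 6.37 in sham, 5.96, 6.01 and 5.64 after castration, and 6.71, 6.25 and 6.29 with testosterone. Here the castration arrays were below every array of both other groups, by less than 0.01 at the point closest to sham, whereas testosterone 2 had overlapped with castration on the brighter probe set. Fitted with all 45037 probe sets, it differed by −0.29 (SE 0.16) for castration against sham and by 0.54 (SE 0.16) for testosterone against castration, with adjusted p of 0.883 and 1.00 by limma. The 2 probe sets measure the same RNA pools and are no independent replicates.

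Actn3 encodes alpha-actinin-3, the fast fibre actinin of the Z-disc. It measured 13.67, 13.79 and 13.75 in sham, 13.75, 13.82 and 13.82 after castration, and 13.77, 13.76 and 13.65 with testosterone, and the groups overlapped. Pvalb, the gene of parvalbumin, measured 13.67, 13.76 and 13.74 in sham, 13.77, 13.78 and 13.78 after castration, and 13.69, 13.76 and 13.72 with testosterone. The castration arrays lay above all 6 others, by less than 0.01 at the closest point. The difference was 0.05 (SE 0.07, adjusted p = 0.880 by limma) for castration against sham and −0.05 (SE 0.07, adjusted p = 1.00) for testosterone against castration.

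**Figure D2:**
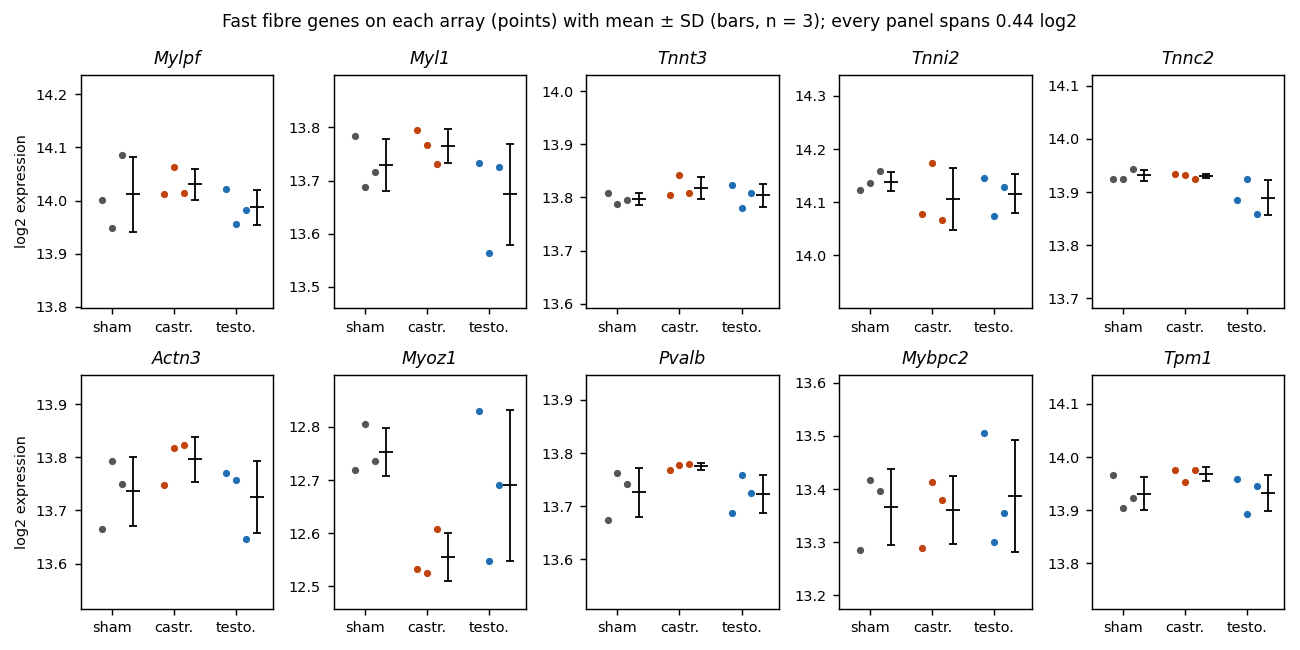
Log2 expression of each of the 10 genes on each array (points) by group, with the group mean ± SD (bars, n = 3), every panel drawn over the same log2 span. Myoz1 is low on the 3 castration arrays, Pvalb is tightly grouped at 13.77 to 13.78 there, and the other 8 genes overlap between castration and sham.

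Over the 10 genes, 6 were higher and 4 lower after castration than in sham, with a median log2 difference of 0.02 beside 0.01 over all genes. None passed, against 0% of all genes by limma, and none had an unadjusted p under 0.05, against 4.72%. The arrays did not overlap in 2 of 10, Pvalb higher and Myoz1 lower, against 8.89% of all genes. With testosterone against castration 3 were higher and 7 lower, with a median of −0.04 beside −0.01. None passed there either, against 0%, or had an unadjusted p under 0.05, against 3.48%. Only Pvalb did not overlap, 1 of 10 against 9.01%. Testosterone against sham gave 3 higher and 7 lower, a median of −0.02 beside 0.01, and no call against 0%. None had an unadjusted p under 0.05, against 4.35%, and no gene was without overlap, against 6.47%. With median centring the median of this comparison was 0.02 for the 10 genes beside 0.04 over all genes. The comparisons share arrays, so their counts are not independent.

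The intervals cover the spread between arrays. They do not cover a flattened signal near the upper end or the effect of normalising the arrays together, either of which could hide a larger change. All 10 limma 95% intervals stayed within a 1.32-fold difference in either direction for castration against sham, within 1.26-fold for testosterone against castration and within 1.20-fold for testosterone against sham, on the scale of the deposited values. The moderated fit widens them, since it draws the small SDs of these genes toward that of all genes. Without moderation the smallest adjusted p of the 10 genes was 0.861, 1.00 and 0.803 in the 3 comparisons.

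**Figure D3:**
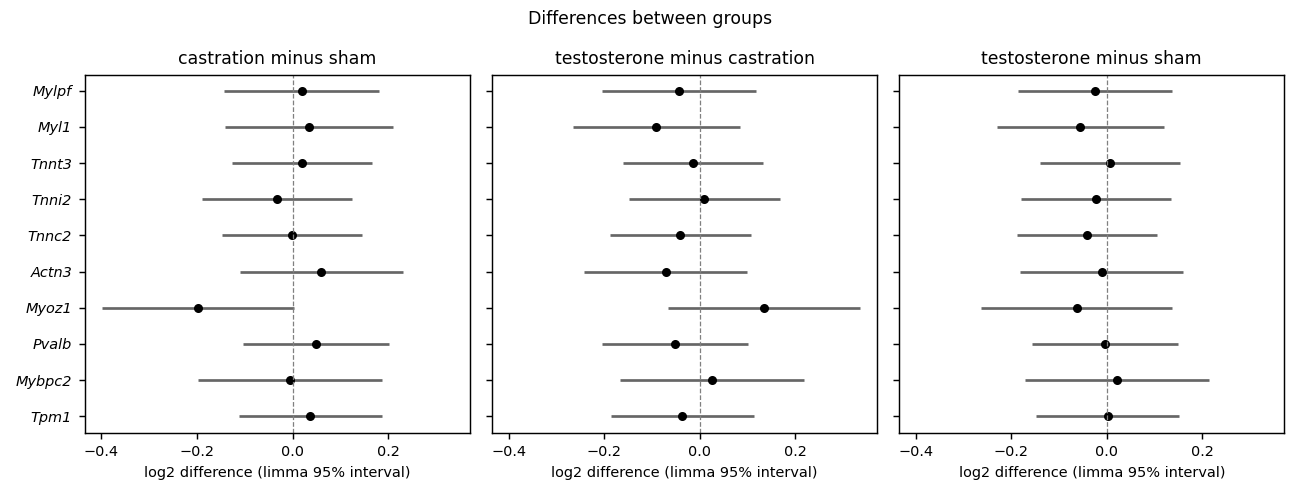
Log2 differences (points) with limma 95% intervals (lines) for the 10 genes in the 3 comparisons, n = 3 arrays per group. All of these moderated intervals include 0, and the Myoz1 interval for castration minus sham, −0.40 to 0.003, reaches furthest to one side.

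The further probe sets of Tpm1, a gene that many cell types splice into different isoforms, varied more than its brightest one. Probe set 1456623_at measured 6.39, 5.33 and 6.59 in sham, 6.59, 7.09 and 6.53 after castration, and 7.31, 7.40 and 6.47 with testosterone. Sham 2 was the low array and testosterone 1 and 2 were the high ones. Its difference of testosterone against sham was 0.96 (SE 0.36, adjusted p = 0.797 by limma over all probe sets). Probe set 1423721_at was lowest on sham 2, at 5.02, and testosterone 2, at 5.10, the least typical arrays, and lay between 5.75 and 6.30 on the other 7. It differed by −0.50 (SE 0.32, adjusted p = 1.00) for testosterone against castration, with arrays that did not overlap. The 7 smooth muscle markers, all measured, stand for another source of tropomyosin transcripts. They had scores of −0.21 to 0.12 in sham, −0.11 to 0.22 after castration and −0.10 to 0.09 with testosterone, and their part in these values was not tested. Probe set 1447713_at lay between 8.67 and 9.31 with overlapping groups. The further probe sets of Tnni2 measured 13.06 to 13.17 and 3.59 to 3.94. The brighter of them carries the suffix for probes that can cross-hybridise, and its castration arrays lay below those of sham by less than 0.02 at the closest point, with the testosterone arrays below those of sham too.

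**Figure D4:**
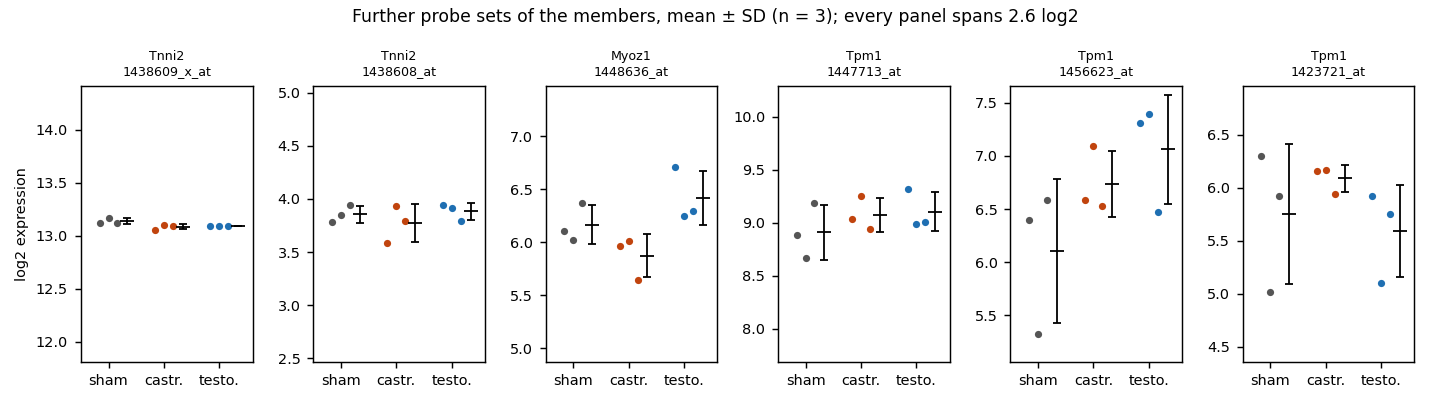
Log2 expression on each array (points) for the 6 further probe sets of Tnni2, Myoz1 and Tpm1, with group mean ± SD (bars, n = 3), every panel drawn over the same log2 span. Myoz1 1448636_at is lowest after castration (5.64 to 6.01) and Tpm1 1456623_at spreads from 5.33 to 7.40.

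The slow fibre counterparts had wider ranges between arrays than the fast forms, at lower levels, where ranges over all genes were also wider. The median range of the slow list was 1.3. Over all genes it was 0.917 at means of 5 to 8, 0.620 at 8 to 11 and 0.352 at 11 to 13. In each of 9 fast and slow pairs the slow gene had the wider range over the 9 arrays, from 0.385 for Mybpc1 to 1.59 for Tnnc1, while the fast partners ranged over 0.0603 to 0.306. Mybpc1 and Actn2, at 0.517, had the narrowest ranges of the slow partners. Being on this list does not mean that a gene is confined to slow fibres. Tnni1, slow troponin I, measured 10.15, 9.01 and 9.05 in sham, 10.59, 9.34 and 9.67 after castration, and 9.32, 10.56 and 10.10 with testosterone. High and low arrays occurred in every group. Of the 12 slow fibre genes 11 were higher after castration than in sham with a median of 0.19, 10 were higher with testosterone than after castration (0.14) and 10 higher with testosterone than in sham (0.42), and none passed in any comparison. At an unadjusted p under 0.05 there were 1, 0 and 0 of the 12, against 4.72%, 3.48% and 4.35% of all genes. Casq2, the slow and cardiac form of calsequestrin, had the smallest p after castration, with a log2 difference of 0.87 (SE 0.31, adjusted p = 0.838 by limma). It measured 7.48, 6.20 and 6.86 in sham and 7.97, 7.76 and 7.42 after castration. These arrays overlapped, and sham 2 was the lowest of all 9.

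On each array the mean deviations of the fast and the slow list had opposite signs. The slow list was above its mean on 4 arrays, sham 1, castration 1, testosterone 2 and testosterone 3, and on all 4 the fast genes averaged below theirs. On the other 5 the slow list was below and the fast mean above. Single fast genes did not all follow their mean: on the 4 arrays, in that order, 4, 5, 7 and 5 of the 10 were below their own mean. The slow score ran from −0.54 on sham 2 to 0.52 on testosterone 2, and the fast score from −0.05 on testosterone 2 to 0.03 on testosterone 1, a span of 0.0803 against 1.06. As a description over 9 arrays that share a normalisation, Pearson's r was −0.853 and Spearman's rho −0.80. It was −0.832 without castration 1 and testosterone 2, the arrays farthest from the median slow score, −0.656 without Myoz1, and −0.865 for deviations from the group means. Members differed in this, with r below 0 for 9 of 10: r with the slow score was −0.857 for Mybpc2, −0.605 for Tnni2, −0.586 for Myoz1 and −0.543 for Actn3, but −0.09 for Myl1 and Pvalb, −0.07 for Tnnc2 and 0.14 for Tpm1. For deviations from the group means r was below 0 for 7 of 10, with Tnnc2 at 0.22. This relation was looked for after the values had been seen.

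**Figure D5:**
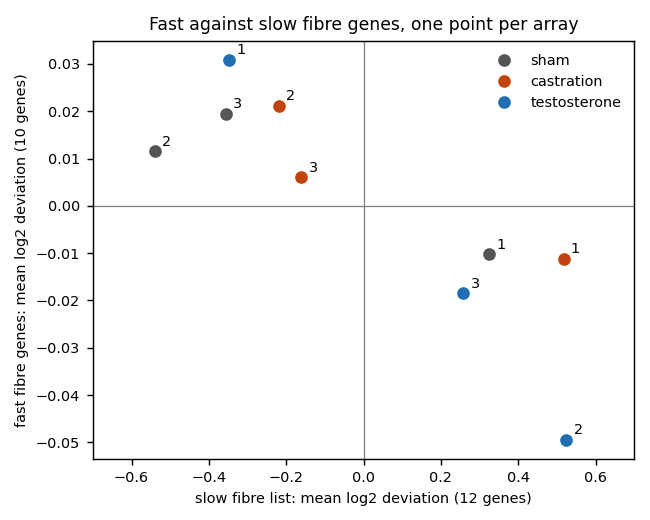
Mean of the log2 deviations of the 10 fast fibre genes from their own means (vertical) against that of the 12 slow fibre genes (horizontal), one point per array, numbered by replicate and coloured by group. The 4 arrays with a positive slow score have a negative fast score and the other 5 the reverse, and each group has arrays on both sides; the vertical scale spans far less than the horizontal one.

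The genes whose values most resembled the mean of the 10 over the 9 arrays, among 1558 named genes with a mean of at least 8, were Tmod4 (r = 0.909), Gpd1 (0.904), Styx (0.883), Pgam2 (0.880) and Pfn2 (0.863). Tmod4 encodes a tropomodulin that caps thin filaments in skeletal muscle, and Gpd1 and Pgam2 encode enzymes of glucose metabolism. The genes most opposed were Mrpl12 (−0.950), Myh7 (−0.942), Tnnc1 (−0.911), Acadvl (−0.908) and Hspb7 (−0.904). Myh7 and Tnnc1 encode slow myosin heavy chain and slow troponin C, and Acadvl an enzyme of fatty acid oxidation. Both sets are the extremes of 1558 correlations over 9 arrays, and how far chance alone would reach was not tested. The 10 genes did not vary as 1 block. Among their 45 pairs r had a median of 0.04, with 25 above 0 and 20 below, from −0.627 for Myoz1 with Pvalb to 0.842 for Myl1 with Tpm1. Tnni2 and Tnnt3, which lie close together with Lsp1 and Prr33 between them in the RefSeq gene order, had r = 0.488.

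Other genes of the sarcomere and the fast fibre were described from a list of 31, of which 29 were measured. After castration 20 were higher and 9 lower than in sham (median 0.02), with testosterone 10 were higher and 19 lower than after castration (−0.02), and 9 were higher and 20 lower with testosterone than in sham (−0.03). None passed in any comparison by limma, and 1, 3 and 0 of the 29 had an unadjusted p under 0.05, against 4.72%, 3.48% and 4.35% of all genes. Mylk2, the kinase that phosphorylates the fast regulatory light chain, had a log2 difference of −0.37 (SE 0.16, adjusted p = 0.838) after castration. Casq1, the fast calsequestrin, and Cacna1s, the voltage sensor of the transverse tubule, had differences of −0.23 (SE 0.08) and −0.30 (SE 0.11) with testosterone against castration, at an adjusted p of 1.00 each. Klhl41, a sarcomere-associated kelch protein, had −0.35 (SE 0.14) and Pdlim3, a Z-disc protein, −0.59 (SE 0.29) in that comparison, and Pdlim3 was at 10.11 on testosterone 2 against 10.93 to 11.64 elsewhere. The fast myosin heavy chains gave differences of both signs for castration against sham, −0.17 (SE 0.10, adjusted p = 0.838) for Myh1, 0.09 (SE 0.12, adjusted p = 0.871) for Myh2 and 0.05 (SE 0.07, adjusted p = 0.881) for Myh4. Of 10 measured regulators of the fast programme none passed either, and Mef2d, a MEF2 transcription factor, had the smallest p, at 0.28 (SE 0.11, adjusted p = 1.00) with testosterone against castration, though its other 2 probe sets had the opposite sign.

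Of 8 developmental and cardiac sarcomere genes, 1 had differences far larger than those of the fast fibre genes. Actc1, cardiac alpha-actin, had a log2 difference of 2.11 (SE 0.38, adjusted p = 0.419 by limma) for castration against sham and of −3.00 (SE 0.38, adjusted p = 0.0610) for testosterone against castration, neither passing. None of the other 7 passed in either comparison. The largest of their differences were 0.45 for Myl4 after castration and 0.23 for Myh3 with testosterone against castration, and Tnnt2, at a mean of 3.32, had 0.08 and 0.02. Myl4 was 3.88 on sham 2 against 5.13 on sham 1 and sham 3. For castration against sham, 1 of 2 probe sets of Myl4 and 1 of 3 of Tnnt2 had the sign given. Except for Myl4, the other 7 genes had means of 3.14 to 3.34, at the dim end of the arrays.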

How the data were processed

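The deposited values are log2 expression per probe set on 9 Affymetrix arrays, which the authors deposited after RMA, as the submitters' processing notes name it; which version was used is not stated there. This method corrects background, normalises arrays together and summarises probes, so shifts common to an array are removed. Per the labels, 4 µg of RNA from each of 3 animals were pooled per array and 12 µg labelled. The 64 control probe sets were left out of tests. Probe sets were named from the platform annotation, with symbols updated through gene identifiers; 34945 had 1 gene, 932 several and 9160 none listed. Groups came from the titles.

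Groups were compared in R 4.3.3 with limma 3.58.1 (group as the only term, all 9 arrays, two-sided, Benjamini-Hochberg over 18193 genes, threshold 0.05). The fit was tested on simulated data. Per the labels, replicates are biologically independent. The members and lists, and leaving out sham 2 and testosterone 2, were chosen with earlier results of these data known. All members were named, and from other lists up to 4 genes with the smallest p per comparison. Of those, a selection is printed, with Tnni1, Myh2, Myh4, Myl4, Tnnt2 and Myh3 as examples chosen after their values were seen. Alternatives are given in the closing section. The number of arrays limits the precision. Deviations of same-numbered arrays from their group means had correlations from −0.489 to 0.268. Differently numbered arrays were not compared, so whether the replicate numbers mark shared handling was not tested.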

Additional observations from a re-analysis of the deposited data

How the results depend on the processing

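No member passed the limma test over all genes under any of the 21 alternatives in any comparison. The smallest adjusted p among them was 0.192, with array weights for castration against sham, where sham 1 outweighed the other sham arrays. An unadjusted p under 0.05 was reached by Myoz1 in 9 of the 21 for castration against sham and in 4 for testosterone against castration, and by Tnnc2 in 1 for testosterone against sham, with none in the settings of the report. In those settings 756 to 3295, 481 to 1281 and 698 of 18193 genes reached it in the 3 comparisons. The alternatives refit the same data, so these counts are not independent. The replicate block changed no call: 0 members and 0 of all genes passed with it in each comparison. Signs of small differences turned in 47 of 630 cases, all of main differences no larger than 0.0634. With renewed quantile normalisation Mylpf became −0.00221 for castration against sham and Actn3 0.00567 for testosterone against sham. With median centring Tnnc2 and Mybpc2 became 0.0299 and 0.0259 for castration against sham, and Mylpf, Tnni2, Actn3 and Pvalb 0.0098, 0.0117, 0.0233 and 0.031 for testosterone against sham. With array weights Myl1, Tnnc2 and Mybpc2 became −0.000988, 0.00327 and 0.0409 for castration against sham, and Tnni2, Actn3, Myoz1, Pvalb and Tpm1 0.000569, 0.0325, 0.00142, 0.0295 and −0.0159 for testosterone against sham. Without sham 2 and testosterone 2, Mylpf and Mybpc2 became −0.0126 and 0.0204 for castration against sham, and Actn3 and Myoz1 0.001 and 0.0336 for testosterone against sham. The mean of probe sets gave Myoz1 0.0937 for testosterone against sham, and probe sets without a suffix gave Tpm1 0.0271 for testosterone against castration. The differences of Tnnt3 and Tnnc2 for testosterone against castration and of Tnni2 for testosterone against sham became 0 with renewed quantile normalisation. This normalisation gives probe sets of the same rank the same value on every array. The ranks on single arrays were 9 to 11 for Tnnt3, 7 to 8 for Tnnc2 and 2 to 3 for Tnni2. For such genes the setting leaves little room for a difference, and its part in the other changes was not tested.

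With median centring the members' median became 0.0511 for castration against sham, beside 0.0413 over all genes. For testosterone against sham it became 0.0175, beside 0.0418. With renewed quantile normalisation it was −0.00387 for testosterone against castration, beside −0.00364. Leaving out 1 array turned the sign of 12 differences. These ran for castration against sham from −0.0126 to 0.0564 for Mylpf, −0.0458 to 0.0301 for Mybpc2 and −0.00428 to 0.00467 for Tnnc2. They ran for testosterone against castration from −0.0102 to 0.0435 for Tnni2 and −0.033 to 0.0691 for Mybpc2. They ran for testosterone against sham from −0.0383 to 0.0638 for Mybpc2, −0.0462 to 0.0281 for Actn3, −0.0292 to 0.0152 for Pvalb, −0.0122 to 0.0206 for Tpm1, −0.0562 to 0.0128 for Mylpf, −0.00235 to 0.0187 for Tnnt3 and −0.134 to 0.00785 for Myoz1.

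Over all genes the count passing was 0 in each comparison with the settings of the report. For castration against sham it was 2 with the mean of probe sets, 5 with renewed quantile normalisation and 2 with an intensity trend and robust variances. In the same comparison it was 18 without sham 2 and testosterone 2, and 174 with array weights. These weights were 4.61 for sham 1 against 0.164 for sham 2 and 0.644 for sham 3, so the 174 calls rest largely on 1 sham array. For testosterone against castration the count passing was 12 with only the 2 groups compared, 2 with the mean of probe sets and 7 among genes with a mean of at least 5. It was 22 with renewed quantile normalisation, 12 with the trend and robust variances, 59 with array weights and 27 without sham 2 and testosterone 2. Leaving out 1 array gave 0 to 7, 0 to 28 and 0 to 1 genes in the 3 comparisons, with 7 without sham 2, 28 without sham 2 and 1 without testosterone 3.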
